A study of Homo sapiens with 66 samples.

Results

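Binding of the hypoxia-inducible factors (HIFs) was examined at 3 human genes, VGLL4, NARF and FAM174B, whose main site had HIF-1α and no HIF-2α peaks in RCC4 cells and in the wild-type HKC-8 cells of a knockout experiment. The loci were chosen by that pattern, so the HIF-α calls in the wild-type HKC-8 libraries of the knockout experiment and in RCC4 and HepG2 cells are descriptive and were not tested. Across 50 chromatin immunoprecipitation (ChIP-seq) libraries, 170 peaks had their centre in the body of a member gene or within 50 kb of one of its transcription start sites (TSSs), or joined such a peak by overlap. They merged into 20 sites, out of 50316 merged sites in the whole series. VGLL4 held 7 of them, NARF 6 and FAM174B 7.

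The libraries fell into 25 groups of 2. HKC-8, a human kidney proximal tubule line, was kept at 0.5% oxygen (6, 16 or 48 h) or at 3% oxygen (6 h). In a separate experiment, HKC-8 wild-type (WT), HIF1aKO and HIF2aKO cells were kept in 0.5% oxygen for 16 h. RCC4, a renal carcinoma line without functional VHL, was studied in normoxia, and HepG2, a hepatocellular carcinoma line, in 0.5% oxygen for 16 h. Chromatin was precipitated with antibodies to HIF-1α (16 libraries), HIF-2α (16) and HIF-1β (18). No HIF-1α library of HIF1aKO cells and no HIF-2α library of HIF2aKO cells was among them. Each edited line was a single CRISPR-Cas9 clone, so clone and genotype cannot be told apart. The labels do not say whether replicates came from separate cultures, and p-values measure only the spread between these libraries.

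HIF is a heterodimer of an oxygen-regulated α-subunit, HIF-1α or HIF-2α, and the constitutive partner HIF-1β. In normal oxygen, prolyl hydroxylation marks the α-subunits for VHL-dependent destruction, and in hypoxia they accumulate and bind hypoxia response elements (HREs) with HIF-1β. Both dimers recognise the same core motif, yet they occupy different, overlapping sets of sites in chromatin. VGLL4 encodes a cofactor of the TEAD transcription factors that competes with the Hippo pathway effector YAP. NARF encodes a nuclear protein that binds prelamin A, and FAM174B encodes a membrane protein.

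The main site of each gene was the HIF-1-only site in WT cells with the best mean HIF-1α score. At VGLL4 (ENSG00000144560.16_13) it spanned chr3:11683479-11685839, with its centre in an intron, 1193.5 bp downstream of the nearest VGLL4 TSS. At NARF (ENSG00000141562.19_10) it spanned chr17:80414948-80417745 and centred on the promoter, 60.5 bp from a NARF TSS and within an annotated untranslated region (UTR), where the antisense transcript NARF-AS2 is also annotated. At FAM174B (ENSG00000185442.13_14) it spanned chr15:93351432-93353272, with its centre in an intron 579 bp inside the gene from a TSS. All coordinates are on GRCh37 (hg19). Of the 142 HIF-1-only sites in WT cells, 76 (53.5%) lay within 1 kb of a coding TSS, as did NARF and FAM174B. Among all sites with a HIF-α peak in WT cells the share was 8.51%. These needed a peak in any HIF-α library, while HIF-1-only sites needed both HIF-1α replicates, so the shares are not matched.

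The plus-strand reference sequence around each main site is shown because the position of the HRE cores differs between the genes. Capitals mark the HRE core (ACGTG or GCGTG on either strand). Each stretch is within 200 bp of the site centre and leaves out annotated UTR, so that the NARF stretch ends just upstream of the annotated gene. The NARF stretch ends more than 100 bp before the site centre. Its CACGTG is therefore not the core counted below within 100 bp of the centre.
VGLL4 main site (chr3:11684045-11684344): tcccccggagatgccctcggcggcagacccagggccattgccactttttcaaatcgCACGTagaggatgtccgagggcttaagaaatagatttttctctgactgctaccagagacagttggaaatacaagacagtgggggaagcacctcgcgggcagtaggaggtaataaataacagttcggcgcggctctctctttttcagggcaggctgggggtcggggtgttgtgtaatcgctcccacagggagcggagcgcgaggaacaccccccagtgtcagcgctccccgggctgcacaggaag
NARF main site (chr17:80415974-80416055): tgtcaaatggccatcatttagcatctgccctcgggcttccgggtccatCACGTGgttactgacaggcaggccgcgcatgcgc
FAM174B main site (chr15:93352298-93352597): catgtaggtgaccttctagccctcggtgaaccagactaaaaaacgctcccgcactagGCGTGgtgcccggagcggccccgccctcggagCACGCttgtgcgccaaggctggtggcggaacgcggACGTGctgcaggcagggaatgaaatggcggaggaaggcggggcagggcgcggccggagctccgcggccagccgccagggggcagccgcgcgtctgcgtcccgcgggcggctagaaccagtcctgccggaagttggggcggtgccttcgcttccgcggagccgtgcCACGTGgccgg
The VGLL4 stretch held 1 core. The NARF stretch held CACGTG, a palindrome that counts as 2 overlapping cores, and the FAM174B stretch held 5 cores including 1 CACGTG. The stretches differ in length (300, 82 and 300 bases), so these counts are not a comparison of density.

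Within 100 bp of the site centre, VGLL4 had 1 HRE core, NARF 1 and FAM174B 3. None of the 3 windows held the AP-1 motif TGACTCA or TGAGTCA. A core was present in 77.5% of the 142 windows of HIF-1-only sites in WT cells, in 75.1% of 868 windows of sites with both isoforms in both replicates, in 46.6% of 2328 HIF-2-only windows and in 25.4% of windows of the same length 2 kb from the HIF-1-only sites. AP-1 was found in 9.86% of HIF-1-only windows, 21.2% of windows with both isoforms and 18.2% of HIF-2-only windows.

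Before the results, the HepG2 libraries need a remark. At all 3 main sites the library labelled HIF-1α replicate 1 had no peak and that labelled HIF-2α replicate 1 had one, whereas in replicate 2 only the library labelled HIF-1α had one. Other HIF-1-only sites gave a like split. Of 50 sites that were HIF-1-only in both WT HKC-8 and RCC4 cells, a peak was found at 1 in the HepG2 library labelled HIF-1α replicate 1, at 42 in HIF-1α replicate 2, at 43 in HIF-2α replicate 1 and at 2 in HIF-2α replicate 2. At the 100 sites that were HIF-2-only in both lines, the same libraries in the same order had 6, 9, 5 and 7 peaks. With so few calls, these sites cannot show whether there was such a split. The labels were kept as given, no HepG2 library was reassigned, and counts are given with and without this line.

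A call means a peak of at least 1 bp overlap with the site in the list of that library. Rank 1 is the peak with the highest score of its library, and the score percentile is the share of that library's peaks with an equal or lower score, set at 0 where there was no peak. The lists held 237 to 8279 peaks, and a missing call can lie just below the limit of the peak caller.

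All 3 main sites were called in 15 of 16 HIF-1α libraries. HIF-2α was called at VGLL4 and NARF in 3 of 16 libraries each and at FAM174B in 1. Without HepG2, HIF-1α was called at each of the 3 sites in 14 of 14 libraries, and HIF-2α in 2, 2 and 0 of 14. HIF-1β was called in 17 of 18 libraries at VGLL4, in 18 at NARF and in 16 at FAM174B (15, 16 and 14 of 16 without HepG2). The peaks at each site shared a position, with a median distance from the site centre of 66 bp at VGLL4, 114 bp at NARF and 62.5 bp at FAM174B. At NARF and FAM174B the peaks of all libraries with a call had bases in common. At VGLL4 they did not, because narrow peaks of 234 to 289 bp lay to either side of the centre.

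**Figure D1:**
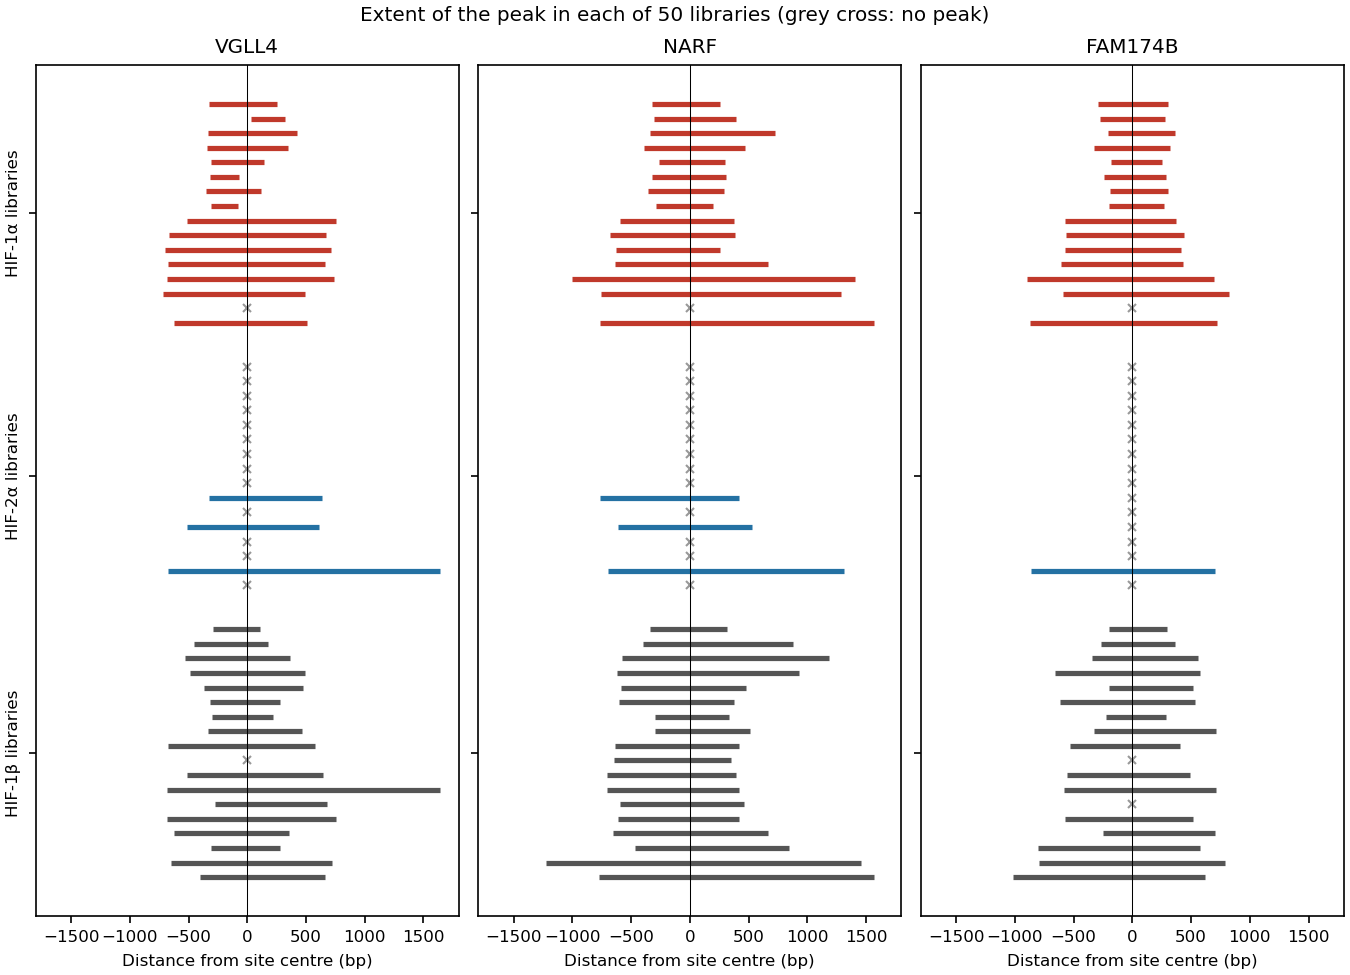
Extent of the best-scoring peak at each main site in the 50 libraries, as distance from the site centre in bp, with one line per library and a grey cross where there was no peak. HIF-1α (red) and HIF-1β (grey) bars fill nearly every line, and HIF-2α (blue) has 3, 3 and 1.

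In unedited HKC-8 cells, HIF-2α was not called at these sites at any of the 4 combinations of oxygen level and time. At each of VGLL4, NARF and FAM174B, HIF-1α was called in 8 of 8 libraries, HIF-2α in 0 of 8 and HIF-1β in 8 of 8. For the difference of 8 libraries, permuting the antibody labels within each condition (exact permutation test on both sides) returned p = 0.00154, the smallest that the 1296 arrangements allow. These libraries did not enter the rule, but the genes were picked with results of the series known, so the p is no independent evidence of the preference. Of 13698 sites with a HIF-α peak in these libraries, 56 (0.409%) had a p below 0.05 with more HIF-1α calls and 154 with more HIF-2α calls. After Benjamini-Hochberg adjustment of the exact permutation p over all these sites, 0 passed the threshold of 0.05 in either direction, and the adjusted p of the 3 sites was 1. The correction left no room for a call, since 423 sites would have had to reach the smallest p for any to pass and 12 did. With calls in 8 of 8 against 0 of 8 libraries, the direction was necessarily the same in 4 of 4 conditions.

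Only 4 of the 13698 sites had HIF-1α in 8 and HIF-2α in 0 of 8 libraries, and 3 of them were the main sites of VGLL4, NARF and FAM174B. Since the genes were picked as HIF-1-only examples with the series known, this describes the choice and is not evidence that they are exceptional. The fourth, at chr1:40626402-40628076 and 82.3 bp from a TSS of RLF, which encodes a zinc finger protein, was named after its values were seen. It too was HIF-1-only in both WT and RCC4 cells. The reverse pattern, HIF-2α in 8 and HIF-1α in 0, was seen at 8 sites, among them the main site of ROBO2. At 3 sites both isoforms were called in 8 of 8 libraries.

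**Figure D2:**
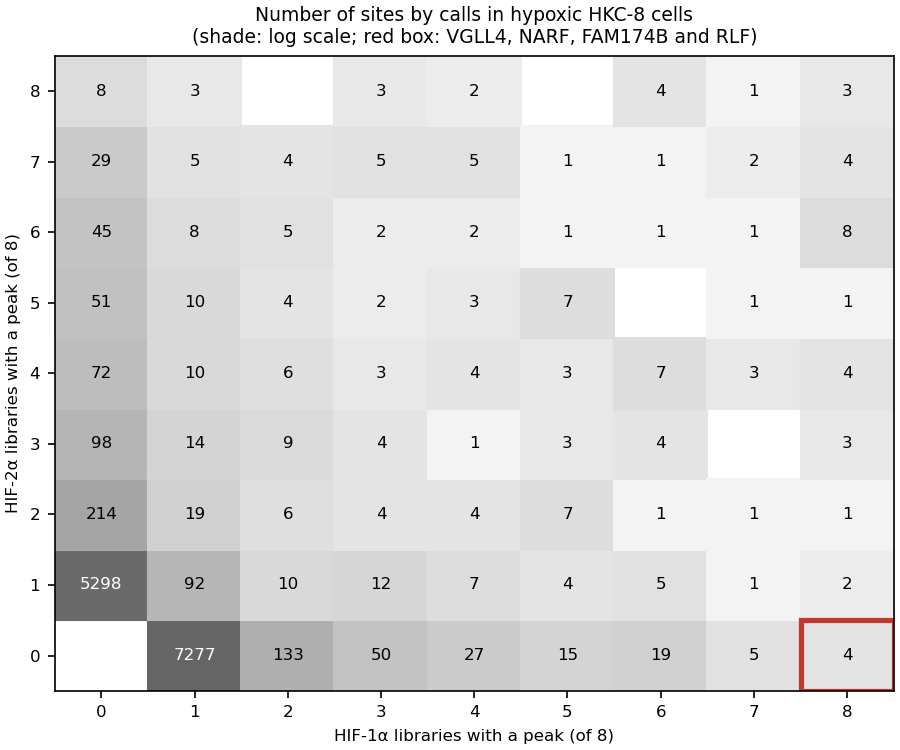
Number of merged sites by how many of 8 HIF-1α libraries (x axis) and 8 HIF-2α libraries (y axis) of unedited hypoxic HKC-8 cells had a peak. The red box holds the 4 sites with 8 and 0 calls, which are VGLL4, NARF, FAM174B and RLF.

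The 3 sites differed in how strongly HIF-1α ranked. At NARF the HIF-1α peak ranked 3 and 5 after 6 h in 0.5% oxygen, 5 and 3 after 16 h, 4 and 6 after 48 h, and 2 and 3 after 6 h in 3% oxygen, in lists of 656 to 1496 peaks. At FAM174B the ranks in the same order were 6 and 4, 4 and 2, 6 and 5, and 3 and 1. Both sites were thus among the first 6 peaks of all 8 lists. At NARF neither oxygen level nor time separated the ranks. At FAM174B after 6 h, both ranks in 3% oxygen (3 and 1) were better than both in 0.5% oxygen (6 and 4). Both of its ranks after 16 h (4 and 2) were also better than both after 48 h (6 and 5). These differences were not tested. At VGLL4 the HIF-1α peak ranked lower, at 54 and 187 after 6 h in 0.5% oxygen, 32 and 14 after 16 h, 43 and 40 after 48 h, and 16 and 23 after 6 h in 3% oxygen. The 6 h libraries in 0.5% oxygen held the 2 lowest ranks for VGLL4, but list lengths differed. By percentile, replicate 1 there (96.46, list of 1496 peaks) was above both 48 h libraries (96.09 and 96.37, lists of 1073). Replicate 2 there had the lowest percentile (85.9) and the lowest score (70.2) of the 8.

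HIF-1β also ranked lower at VGLL4 than at the other sites. In the 8 libraries its rank ran from 2 to 17 at FAM174B (median 7.5), from 2 to 21 at NARF (median 12.5) and from 15 to 303 at VGLL4 (median 59). The FAM174B and NARF ranges overlapped, and the VGLL4 range overlapped them only from rank 15 to 17 and from rank 15 to 21, respectively. At VGLL4 the lowest HIF-1β percentile, 76.2, was again in replicate 2 after 6 h in 0.5% oxygen, and the highest, 98.5, in replicate 2 after 6 h in 3% oxygen.

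In RCC4 cells HIF-1α, HIF-1β and no HIF-2α were called at all 3 sites in both replicates of each antibody. HIF-1α ranked 97 and 42 at VGLL4, 22 and 8 at NARF and 29 and 15 at FAM174B. HIF-1β ranked 18 and 51 at NARF and 19 and 17 at FAM174B. At VGLL4 it ranked 251 and 390, with percentiles of 72.6 and 70.2, below its percentile in each of the 8 libraries of hypoxic HKC-8 cells. Of the 142 sites that were HIF-1-only in WT HKC-8 cells, 50 (35.2%) were so in RCC4 cells. Because the members were chosen by this pattern, the share is given as background only. Cell line, oxygen level and experiment cannot be told apart here.

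In HepG2 cells HIF-1β ranked 81 and 28 at VGLL4, 43 and 9 at NARF and 24 and 11 at FAM174B. The library labelled HIF-1α replicate 2 ranked them 84, 5 and 5, and the library labelled HIF-2α replicate 1 ranked them 45, 4 and 4. In those libraries the NARF and FAM174B peaks were tied at a score of 3100. The HepG2 lists labelled HIF-1α replicate 2 and HIF-2α replicate 1 shared 49.9% of the sites of the shorter list. The other pairs of unlike label shared 44.2% (both replicate 2), 33.1% (HIF-1α replicate 1 and HIF-2α replicate 2) and 26.7% (both replicate 1). The pair labelled HIF-1α shared 34.7% and the pair labelled HIF-2α 25.8%. In WT HKC-8 cells the HIF-1α pair shared 73.8% and the HIF-2α pair 85.1%, against 70.3% to 77.2% for pairs of unlike antibody. In RCC4 cells the HIF-1α pair shared 42.6% and the HIF-2α pair 40.6%, against 26.6% to 39.4% for pairs of unlike antibody. The cause of the HepG2 pattern was not tested.

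**Figure D3:**
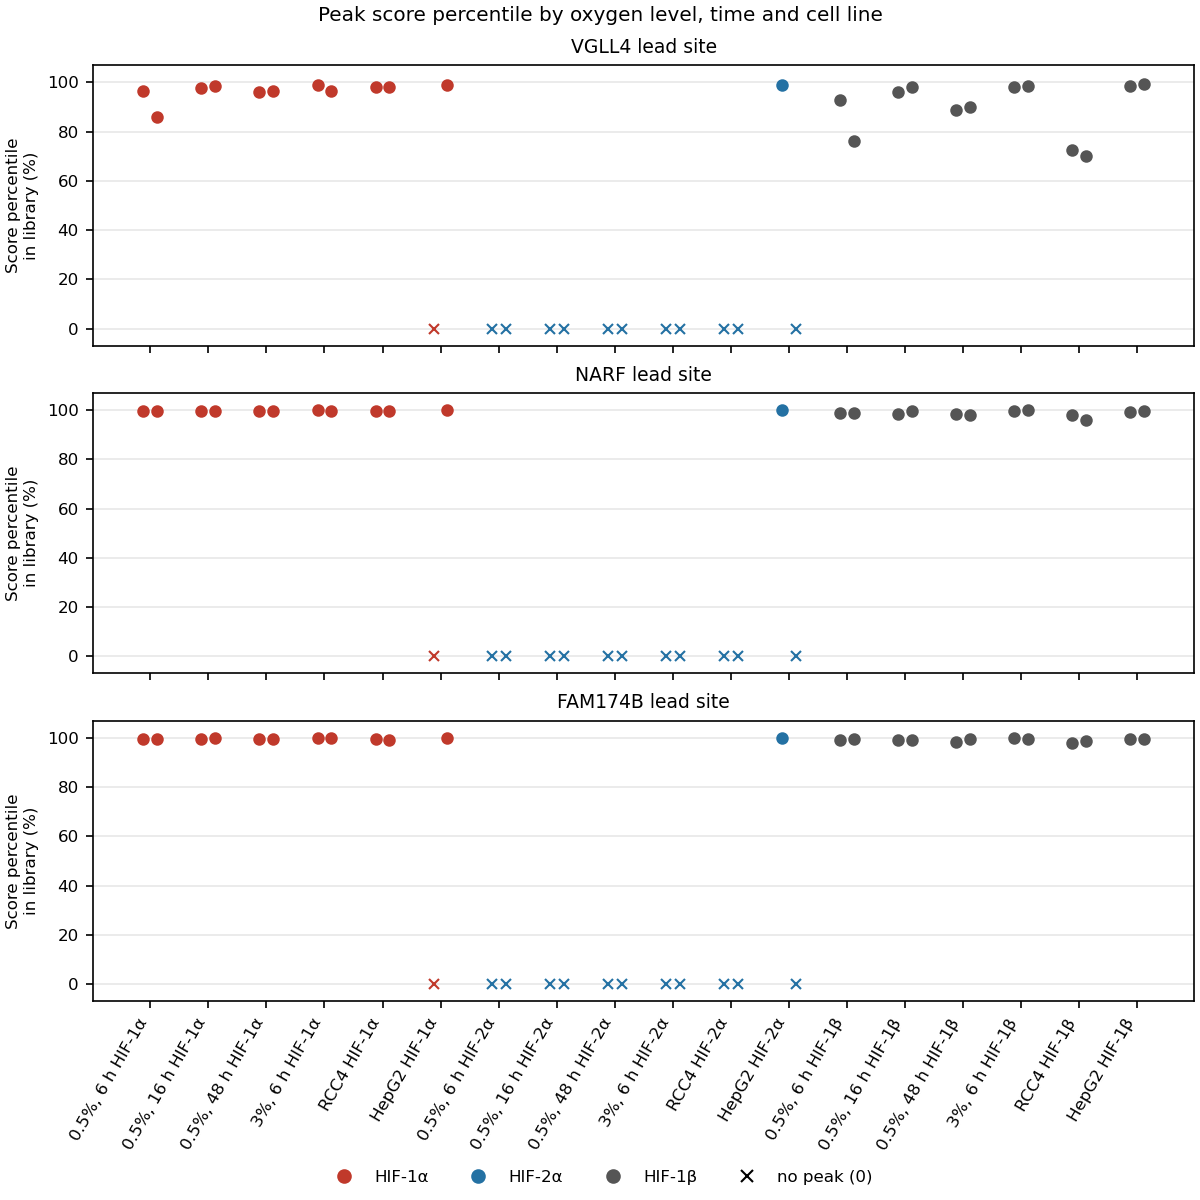
Score percentile of the peak at each main site in its library, by oxygen level and time in HKC-8 cells and in RCC4 and HepG2 cells, with one point per library (2 per group) and a cross at 0 where there was no peak. HepG2 alone, with its labels as given, has a HIF-2α point at each site and lacks a HIF-1α point.

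The knockout experiment asked what remained at these sites without one isoform. Among the 7814 sites with a HIF-α peak in WT cells, 142 (1.82%) were HIF-1-only. The main site of VGLL4 was first of these and NARF second by mean HIF-1α percentile, and FAM174B was number 67. In WT cells HIF-1α ranked 22 and 31 at VGLL4, 81 and 118 at NARF, and 740 and 748 at FAM174B, in lists of 1913 and 1535 peaks. FAM174B thus stood in the middle of the WT lists, at percentiles of 61.4 and 51.3. In the other experiment on unedited HKC-8 cells at the same oxygen level and time it had ranked 4 of 1313 and 2 of 951. HIF-1β at FAM174B moved likewise, from ranks 14 and 12 to 2372 of 6199 and 2404 of 8279. List length differed between the experiments, and its part in this difference was not tested.

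In HIF1aKO cells, HIF-2α was called at 2 of the 3 sites. At NARF it ranked 490 of 5228 and 920 of 6540, with percentiles of 90.6 and 85.9. At VGLL4 it ranked 1789 and 5109, with percentiles of 65.8 and 21.9, and the second of these peaks had a score of 68.1, not far above the lowest score of 50 in any list. At FAM174B neither HIF1aKO library had a HIF-2α peak. HIF-2α was absent from both WT libraries at all 3 sites by the rule that chose them. Of the 142 HIF-1-only sites in WT cells, 15 (10.6%) had HIF-2α in both HIF1aKO libraries, VGLL4 and NARF among them, and 33 (23.2%) in at least 1.

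HIF-1β was lower at all 3 sites in both HIF1aKO libraries than in both WT libraries. The call was missing from both HIF1aKO libraries at FAM174B alone. FAM174B also had the lowest WT scores, 152 and 244, against 1192 and 1122 at VGLL4 and 650 and 703 at NARF. The part of this lower start in the loss of the call was not tested. At FAM174B the WT percentiles were 61.8 and 71.0 and neither HIF1aKO library had a peak. At VGLL4 the WT percentiles were 96.5 and 94.8. Replicate 1 of HIF1aKO had no peak there, and replicate 2 had one at rank 4366 of 5786, a percentile of 24.6 and a score of 70.4. At NARF the WT percentiles were 91.7 and 90.8, and both HIF1aKO libraries kept a peak, at percentiles of 46.5 and 60.6.

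The mean HIF-1β percentile fell from 66.4 ± 6.52 to 0 at FAM174B, from 95.6 ± 1.15 to 12.3 ± 17.4 at VGLL4 and from 91.2 ± 0.639 to 53.6 ± 9.98 at NARF (SD, n = 2 each, exact permutation p = 0.33). With 2 libraries against 2, 0.33 is the smallest p that this test can give, so it cannot pass the threshold. The sites are not set apart from others by a lower percentile, because 61.3% of the 5049 sites with HIF-1β in both WT libraries were lower in both HIF1aKO libraries. A complete loss, as at FAM174B, was seen at 31.3% of the 5049 sites. Among the 133 HIF-1-only sites with HIF-1β in both WT libraries it was seen at 114 (85.7%), which leaves VGLL4 and NARF in the smaller group with at least 1 HIF-1β call in HIF1aKO cells. At VGLL4 and NARF, the sites with HIF-1β calls in HIF1aKO cells were also those with HIF-2α calls. By library this did not hold at VGLL4. Replicate 1 there had HIF-2α at a percentile of 65.8 and no HIF-1β, and replicate 2 had both, at 21.9 and 24.6. How often such calls coincide over all HIF-1-only sites was not computed.

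In HIF2aKO cells the 3 sites kept both HIF-1α and HIF-1β in all libraries. HIF-1β ranked 48 and 99 at VGLL4, 63 and 81 at NARF and 726 and 291 at FAM174B, in lists of 2550 and 2085 peaks. Its mean percentile was 96.7 ± 2.02 at VGLL4, where the libraries overlapped those of WT cells, 96.9 ± 0.994 at NARF and 78.8 ± 10.3 at FAM174B (SD, n = 2; exact permutation p = 0.67, 0.33 and 0.33 against WT). Both HIF2aKO libraries were above both WT libraries at NARF and FAM174B, which was so at 1.90% of the 5049 sites and at 6.98% of the 1376 sites with HIF-1β in all 4 libraries. The scores themselves overlapped, with 650 and 703 in WT and 1082 and 654 in HIF2aKO cells at NARF, and 152.0 and 244 against 167 and 262 at FAM174B. The WT lists were longer (6199 and 8279 peaks), and the part of list length in the percentiles was not tested. HIF-1β was lost from both HIF2aKO libraries at 52.9% of the 5049 sites, and at none of the 3 main sites. The main sites were chosen for having no HIF-2α peak in WT cells. None of these HIF2aKO shares was computed among HIF-1-only sites, so they do not set the 3 sites apart from that class.

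HIF-1α in HIF2aKO cells had mean percentiles of 96.3 ± 2.74 at VGLL4, 96.6 ± 0.779 at NARF and 74.1 ± 17.5 at FAM174B, against 98.5 ± 0.606, 94.1 ± 2.43 and 56.4 ± 7.10 in WT cells (SD, n = 2). The WT values chose the sites, so no test is given. Of 1099 sites with HIF-1α in both WT libraries, 527 (48.0%) kept it in both HIF2aKO libraries. This share was not computed among HIF-1-only sites either. The rise at FAM174B rested on replicate 2 (51.3 in WT, 86.4 in HIF2aKO), and in replicate 1 the values were 61.4 and 61.7.

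**Figure D4:**
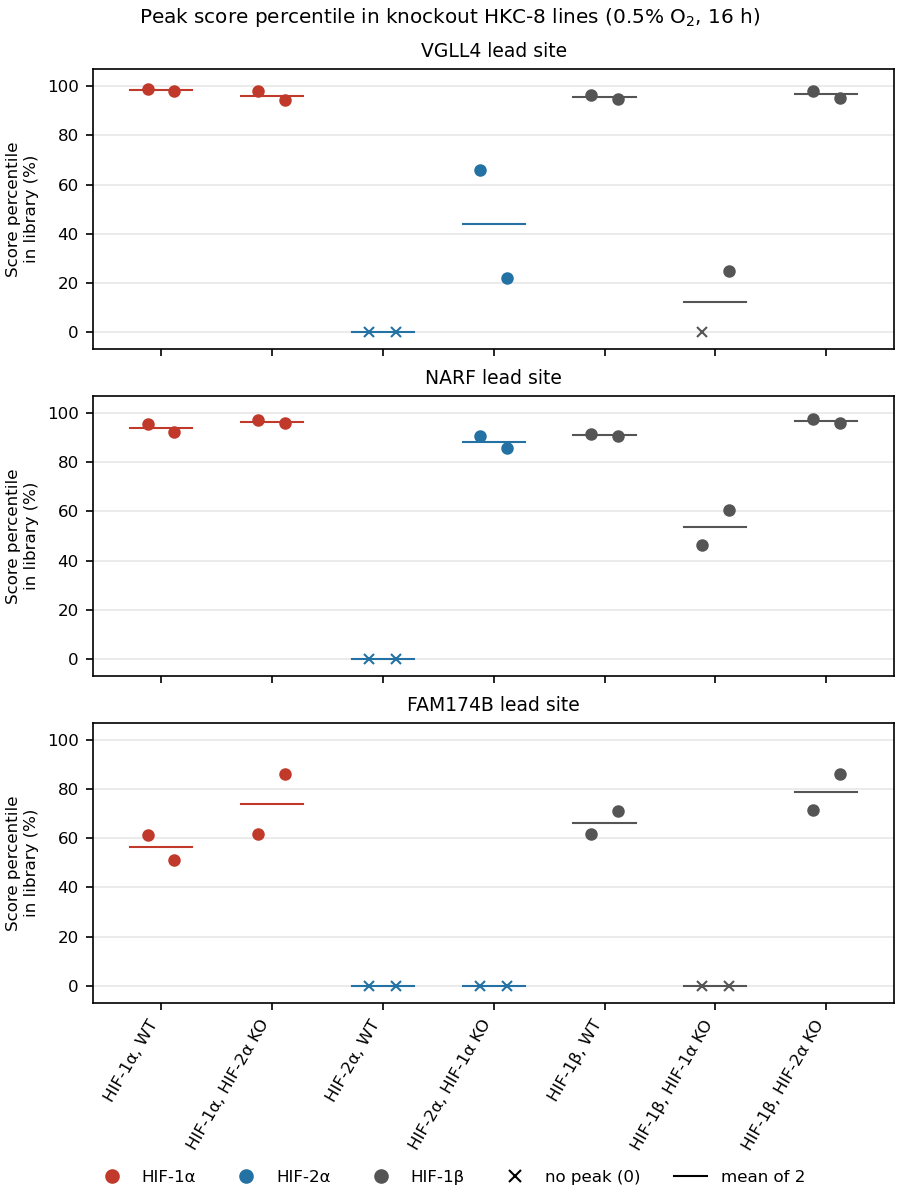
Score percentile at each main site in WT, HIF1aKO and HIF2aKO HKC-8 cells after 16 h in 0.5% oxygen, with one point per library, a line at the mean of 2 and a cross at 0 for no peak. HIF-2α appears at VGLL4 and NARF in HIF1aKO cells, and HIF-1β falls to 0 in both HIF1aKO libraries at FAM174B.

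The main sites of ROBO2 and SMYD3, chosen as HIF-2-only examples by the mirrored rule, gave the reverse calls but differed in HIF-1β. Without HepG2, HIF-2α was called in 14 of 14 libraries at ROBO2 and 13 of 14 at SMYD3, and HIF-1α in 0 of 14 at both. HIF-1β was called in only 1 of 16 libraries at ROBO2 and 0 of 16 at SMYD3, where the 3 HIF-1-only sites had 14 to 16. The share of HIF-1β calls over all HIF-2-only sites was not computed, so this is not shown to be a trait of that class. Another SMYD3 site that was HIF-2-only in WT cells, chr1:246149298-246150766, had HIF-1β in both WT libraries. So did the HIF-2-only site at FAM174B described below. At 100 bp to either side of the centre, ROBO2 had an AP-1 motif and no HRE core, and SMYD3 had 1 core and no AP-1.

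The remaining 17 sites of the 3 loci were called in far fewer libraries, and 6 of them in 1 library each. None was HIF-1-only in WT or RCC4 cells. VGLL4 had 6 other sites with at most 3 calls each, among them a site within the neighbouring gene TAMM41 at chr3:11859303-11859984 that was called only in HIF1aKO cells, with HIF-2α in both replicates and HIF-1β in 1. At NARF, a site downstream of the gene at chr17:80451670-80453099 was called in 12 libraries. It had HIF-1β in 8 of 8 libraries of unedited hypoxic HKC-8 cells, at percentiles of 66.0 to 92.9, but HIF-1α in 2 of 16 and HIF-2α in 0 of 16. Farther downstream, chr17:80488755-80490206 in an intron of FOXK2 had 2 HIF-1α, 1 HIF-2α and 2 HIF-1β calls, and chr17:80476563-80477953, close to a FOXK2 TSS, had 2, 0 and 1.

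FAM174B had further intronic sites with more HIF-2α than HIF-1α calls, and those with the most HIF-2α calls are described first. At chr15:93187119-93190076, 466 bp from another FAM174B TSS, HIF-2α was called in 5 libraries, HIF-1α in 1 and HIF-1β in 10. HIF-1α was called in 1 of the WT libraries, so the site was not HIF-2-only there. In unedited hypoxic HKC-8 cells it had 1 HIF-2α and 0 HIF-1α calls of 8 each (exact permutation p = 1). HIF-2α had percentiles of 90.3 and 94.2 in WT and 93.5 and 95.0 in HIF1aKO cells, and HIF-1β ranked 430 and 296 in WT, 85 and 164 in HIF1aKO and 642 and 195 in HIF2aKO cells. The HIF-1β percentile was thus highest in HIF1aKO cells (97.5 and 97.2), where the main site of the same gene had no HIF-1β peak. At chr15:93230037-93231214, HIF-2α was called in both WT and both HIF1aKO libraries, HIF-1α in none of 16 and HIF-1β in 3, and this site was HIF-2-only in WT cells. Both sites were described because of their calls. HIF-2α without HIF-1α was also called in 1 HIF1aKO library each at chr15:93344339-93345330 and chr15:93346728-93347843. The latter also had HIF-1β in 2 libraries.

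**Figure D5:**
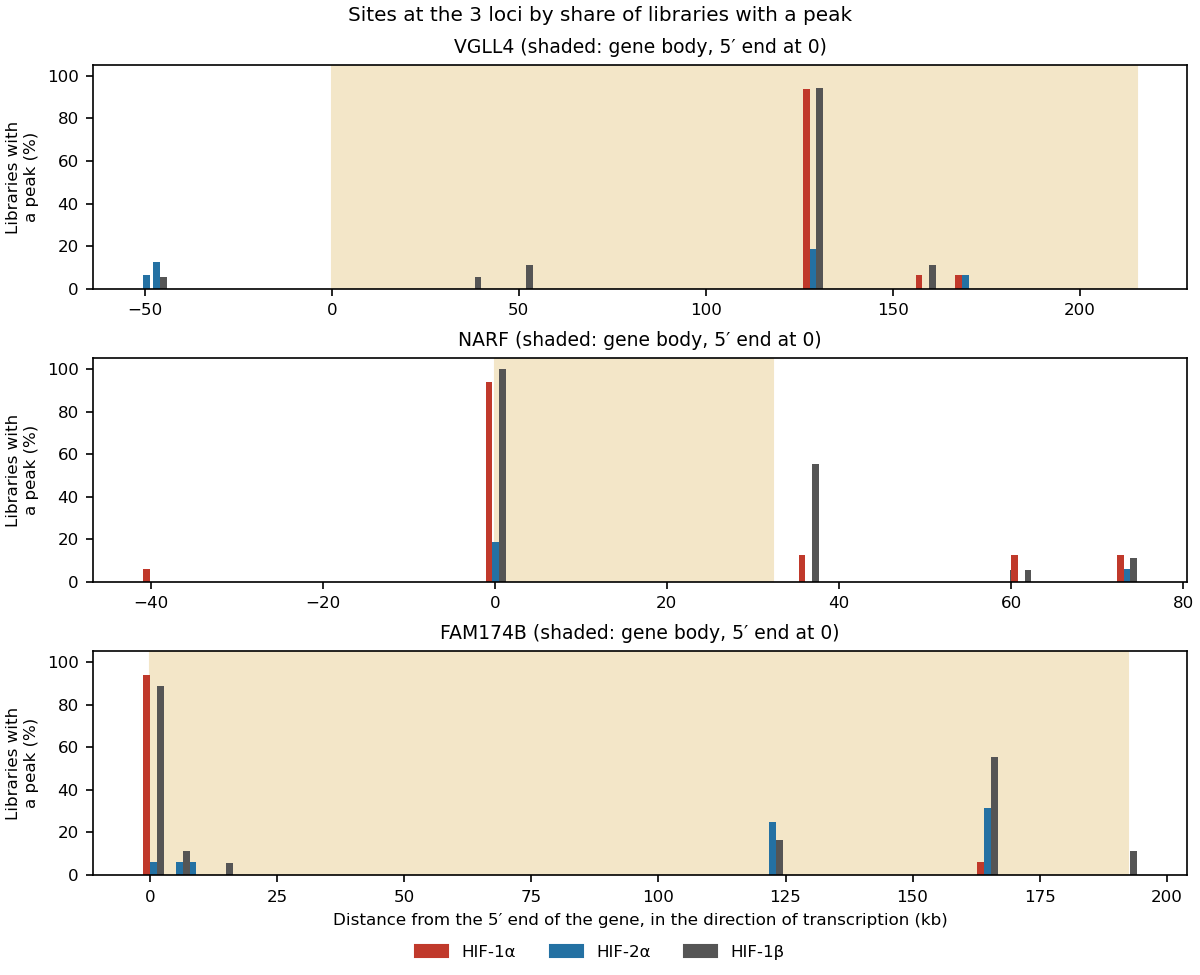
Share of libraries with a peak at each of the 20 sites, by distance from the 5′ end of the gene in kb, for HIF-1α and HIF-2α (of 16 libraries) and HIF-1β (of 18); the shaded span is the gene body. One site per gene exceeds 80% for HIF-1α. At FAM174B that site has a low HIF-2α bar (1 of 16 libraries), and the tallest HIF-2α bars stand elsewhere in the gene.

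The reference sequence of the FAM174B sites with the most HIF-2α calls is shown for contrast with that of the main site. Capitals mark the HRE core in the first and the AP-1 motif in the last.
FAM174B second site (chr15:93188212-93188511): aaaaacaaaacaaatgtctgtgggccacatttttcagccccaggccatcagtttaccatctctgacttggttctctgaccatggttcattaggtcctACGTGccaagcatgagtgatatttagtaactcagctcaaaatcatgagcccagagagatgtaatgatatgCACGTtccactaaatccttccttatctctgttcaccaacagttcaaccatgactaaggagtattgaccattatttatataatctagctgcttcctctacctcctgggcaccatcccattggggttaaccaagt
FAM174B AP-1 site (chr15:93230509-93230808): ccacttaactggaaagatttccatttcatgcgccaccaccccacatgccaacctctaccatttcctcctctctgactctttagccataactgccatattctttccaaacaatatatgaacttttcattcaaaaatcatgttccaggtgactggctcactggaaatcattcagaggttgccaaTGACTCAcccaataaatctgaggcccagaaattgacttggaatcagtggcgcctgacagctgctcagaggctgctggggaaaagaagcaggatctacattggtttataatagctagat
The second site had 2 HRE cores and no AP-1 motif, and the other had 1 AP-1 motif and no core. Their GC content was 42.7% and 44%, against 71.3% in the stretch at the main site of FAM174B.

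At 13 genes related by family or pathway (VGLL1, VGLL2 and VGLL3, which are paralogues of VGLL4, TEAD1 to TEAD4, YAP1 and WWTR1 of the Hippo pathway, NARFL, LMNA, which encodes prelamin A, FAM174A and C19orf24), 52 sites were found. With 142 HIF-1-only sites in WT cells among all 50316, so few sites can hold none of them without standing apart. None of the 52 was HIF-1-only in WT or RCC4 cells or had an exact permutation p below 0.05 in unedited hypoxic HKC-8 cells. Only C19orf24 had HIF-2-only sites in WT cells, 2 in number. With 2328 HIF-2-only sites in WT cells among all 50316, 2 among 52 do not stand apart. VGLL1 and TEAD2 had no site.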

How the data were processed

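ChIP-seq peak lists of 50 libraries were analysed. The 16 input samples had no list and were not analysed here. Per the labels, the authors trimmed reads with Trim Galore 0.3.3, aligned them with BWA 0.7.5a-r405 to hg19, and used SAMtools 0.1.19, bedtools 2.17.0, Picard 1.106 and MACS, called on single libraries. Each deposited peak carries a score, read as -10 times the log10 p of MACS, which depends on sequencing depth. It was therefore used only to rank peaks within a list. Read depth is not in the lists.

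Peaks overlapping by 1 bp were merged. Genes were taken from GENCODE 44 on GRCh37, and motifs were counted in the GRCh37 sequence within 100 bp of the site centre, the median peak centre. Calls were compared by exact two-sided permutation within condition, adjusted over all sites, after checking on simulated data (Python 3.11.15 and NumPy 2.4.6). Site classes need both replicates of 1 isoform and neither of the other. The main site of a gene, the related genes and the other sites described singly (at least 2 libraries) followed written rules, but members and lists were chosen with earlier results of these data known. Alternatives were peak centres within 500 bp, scores of at least 100, lists of equal length, a replicate block, calls in place of percentiles, other TSS windows, and leaving out replicates or HepG2.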

Additional observations from a re-analysis of the deposited data

Results flagged for a closer look

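HIF-1β at the main sites of NARF and FAM174B had score percentiles below WT in both HIF1aKO libraries and above WT in both HIF2aKO libraries. The mean percentile in HIF2aKO minus that in HIF1aKO was 43.3 points at NARF and 78.8 points at FAM174B. It was larger at VGLL4, 84.4 points, where the HIF2aKO libraries overlapped the WT libraries. The difference between the knockouts was not tested. The HIF2aKO lists were shorter (2550 and 2085 peaks) than the WT lists (6199 and 8279), and the scores of both overlapped at NARF and FAM174B, so the higher percentile in HIF2aKO cells is not shown to be stronger binding.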

How the results depend on the processing

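Of 67 alternative values, 51 changed neither direction nor call. The HIF-1α minus HIF-2α difference in unedited HKC-8 cells was 8 of 8 libraries at each site with peak centres within 500 bp and with lists of equal length (237 peaks). With scores of at least 100 it was 8 at NARF and FAM174B and 6 at VGLL4 (exact permutation p = 0.0139). With a replicate block, permuting within condition and replicate number, the difference of 8 kept an exact permutation p of 0.0078. The correlation of replicate differences between the antibodies ran from -0.0029 to 0.036 over the 4 conditions. It cannot decide whether the replicate numbers pair the antibodies, since 12575 of the 13698 sites had a peak in 1 library only. Without replicate 1 or 2 the difference was 4 of 4 libraries at all 3 sites, with an exact permutation p of 0.125, the smallest that 16 arrangements allow. Counting calls instead of percentiles gave a difference of 0 for HIF-1β at NARF in HIF1aKO cells and for HIF-1α and HIF-1β at all 3 sites in HIF2aKO cells, since every library had a peak. The HIF-1α difference at FAM174B in HIF2aKO cells, 17.7 points, was 43.4 with scores of at least 100, and from 0.314 to 35.1 without 1 replicate. The number of sites at the 3 loci, 20, was 14 and 32 with TSS windows of 10 and 100 kb, 9 with scores of at least 100 and 16 without HepG2. Leaving out HepG2, a choice made after seeing the data, took the HIF-2α calls from 3 to 2 at VGLL4 and NARF and from 1 to 0 at FAM174B, and the HIF-1α calls from 15 to 14. Peak lists hold no signal below the limit of the caller, so a missing call does not show that a factor was absent.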
